A study of Mus musculus with 10 samples.

Results

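The comparison described here set 3 mouse ovarian tumours treated with a CDK4/6 inhibitor together with a PD-1 antibody against 2 tumours treated with the antibody alone, 5 of the 10 libraries of the series, and asked what the inhibitor added to the antibody. The other libraries came from 2 tumours given PBS and 3 given the inhibitor alone. The labels give every sample as ovarian cancer tissue of wild-type (WT) mice and state no strain, age, dose or treatment time, nor which cancer cells were implanted. The treatment text of combination replicates 2 and 3 names the antibody as PD2 and PD3, and their titles put them in the combination group. Nothing in the labels says whether the libraries came from separate animals, so the p-values describe how far these particular libraries vary, which may be technical. The comparison covered 19368 genes that reached 0.5 RPKM (reads per kilobase of gene length, scaled to the library's total) in at least 2 libraries. Of the 32830 genes in the table these are the members that could be tested.

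CDK4 and CDK6 are kinases that, bound to D-type cyclins, phosphorylate the retinoblastoma protein and so release E2F transcription factors, which switch on the genes of DNA replication. Inhibitors of these kinases hold RB-proficient cells before S phase, and in other tumour models they have been reported to raise interferon signalling and antigen presentation. PD-1 is an inhibitory receptor of activated T cells, and antibodies against it release those cells. Type I interferon switches on antiviral genes, many of which carry a shared DNA element in their promoters.

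Libraries held 29586539 to 36260856 reads in the combination and 31519039 and 34230298 in the antibody group, so counting error was small for all but rare transcripts. They differed far more in the tissue they contained. Genes of the exocrine pancreas took 14% and 5.75% of the reads of antibody replicates 1 and 2, and 0.00613%, 0.548% and 2.09% of combination replicates 1, 2 and 3. Genes of skeletal muscle took 11.2% of combination replicate 1, 0.215% and 0.812% of combination replicates 2 and 3, and 0.00552% and 0.690% of the antibody libraries. Combination replicate 1 therefore stood apart from its group mates, and its correlation across genes with them was 0.892 and 0.902, against 0.975 between replicates 2 and 3. Liver genes took 0.091% of antibody replicate 2 and at most 0.00555% of any combination library. The tissue label was checked against 14 epithelial and mesothelial markers. The keratin Krt8 lay between 118 and 179 RPKM and the mesothelial transcription factor Wt1 between 33.1 and 53.3 RPKM over all 10 libraries, while Pax8, a Müllerian epithelial factor, reached 1.10 RPKM in combination replicate 1 and at most 0.137 RPKM in the other 4 libraries compared. Epcam, an epithelial adhesion molecule, stood at 27.8 RPKM in combination replicate 1 and at 2.83 to 6.21 RPKM in those 4.

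**Figure D1:**
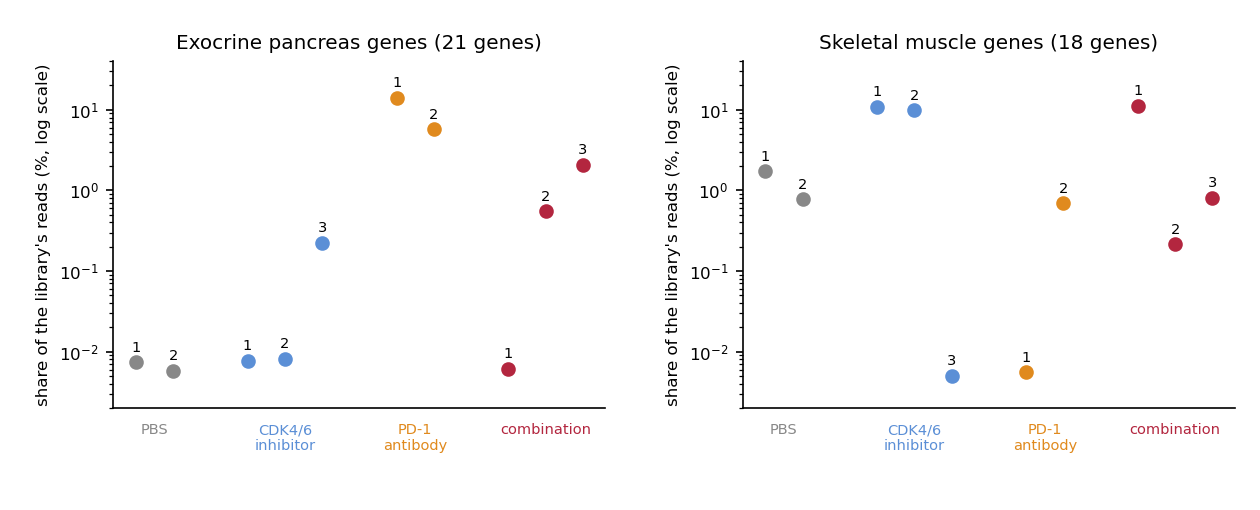
Share of each library's reads on 21 exocrine pancreas genes (left) and 18 skeletal muscle genes (right), on a logarithmic axis, for all 10 libraries, with points numbered by replicate. Both antibody libraries lie above every combination library for pancreas genes, and combination replicate 1 lies far above the other 4 libraries of the comparison for muscle genes.

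Adding the inhibitor to the antibody went with higher transcript levels of interferon response genes. Antigen presentation, T cell and chemokine genes stood higher in combination replicates 2 and 3. Those replicates lay together above both antibody libraries for 50.7% of all genes. In combination replicate 1 all 20 T cell genes lay below both antibody libraries. The T cell median over the 3 combination libraries was 0.10, against 0.12 for all genes. Pancreas genes and genes of the unfolded protein response stood lower. None of these differences passed the test for a single gene. limma with Benjamini-Hochberg adjustment placed 0 of 19368 genes under 0.05, that is 0% in each direction, with a smallest adjusted p of 0.12. At an unadjusted p under 0.05, 778 genes (4.02%) stood higher and 297 (1.53%) stood lower in the combination. limma with voom on the recovered reads also placed 0 genes under the threshold, with 701 higher and 387 lower at an unadjusted p under 0.05. All 3 combination libraries lay above both antibody libraries for 4166 genes (21.5%) and below both for 987 (5.1%). The log2 fold change (combination minus antibody, on log2(RPKM + 0.5)) was above 0 for 67% of all genes tested, with an all-gene median of 0.12, and under median-ratio scaling for 50.8% (below 0 for 49.2%), with a median of 0.00507. That scaling turned the split at an unadjusted p under 0.05 to 282 higher (1.46%) and 483 lower (2.5%), and without antibody replicate 1 it was 230 higher and 356 lower. The counts were 473 and 154 without antibody replicate 2, 372 and 217 without combination replicate 2, and 447 and 276 without combination replicate 3. Each list below is therefore given with its median under both scalings.

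The promoters of interferon response genes were read first, since these genes formed the group with the largest median among the immune lists. RefSeq promoters (GRCm38.p6) were available for 21 of the 30 genes in the type I interferon list. The core of the interferon-stimulated response element, read as GAAA, any 2 bases and GAAA, was searched on both strands from 250 bases before to 50 after the start. It occurred in 10 of the 21 (47.6%), in 9 of 19 promoters (47.4%) of the interferon gamma list and in 497 of all 15862 promoters (3.13%). Overlapping matches within a promoter were counted as 1 promoter. Isg15 and Bst2 are shown because they hold this core and are described below, and Ifi35 because it had the lowest p of all higher genes and does not hold it. Each line gives the 250 bases before the start, 5′ to 3′ on the gene's strand, with the matched letters in capitals.

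Isg15 (chr4:156200819-156201068, minus strand): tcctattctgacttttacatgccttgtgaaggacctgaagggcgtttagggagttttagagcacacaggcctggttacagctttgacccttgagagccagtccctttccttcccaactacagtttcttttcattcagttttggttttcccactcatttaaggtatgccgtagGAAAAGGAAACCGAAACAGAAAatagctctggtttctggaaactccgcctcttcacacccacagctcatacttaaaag

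Bst2 (chr8:71537473-71537722, minus strand): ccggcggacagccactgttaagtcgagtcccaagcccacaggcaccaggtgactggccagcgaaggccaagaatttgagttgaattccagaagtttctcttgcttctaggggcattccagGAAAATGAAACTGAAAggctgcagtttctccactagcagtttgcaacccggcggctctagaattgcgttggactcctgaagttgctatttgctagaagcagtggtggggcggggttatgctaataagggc

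Ifi35 (chr11:101448162-101448411, plus strand): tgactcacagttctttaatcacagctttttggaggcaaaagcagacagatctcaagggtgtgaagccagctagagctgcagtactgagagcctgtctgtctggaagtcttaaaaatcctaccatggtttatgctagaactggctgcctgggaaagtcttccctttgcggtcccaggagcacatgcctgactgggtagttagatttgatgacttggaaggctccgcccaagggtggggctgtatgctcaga

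In Isg15 the 3 overlapping matches lie 78, 72 and 66 bases before the start, and in Bst2 the 2 matches lie 130 and 124 bases before it. These matches are letters in a window and no test of factor binding, and the window of Ifi35 only lacks these letters.

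All 30 type I interferon response genes had a log2 fold change above 0 in the combination, against 67% of all genes, with a median of 1.33 (1.205 under median-ratio scaling). In 18 of the 30 all 3 combination libraries lay above both antibody libraries, against 21.5% of all genes, and 12 stood at an unadjusted p under 0.05, against 4.02%. The list level, a mean of log2(RPKM + 0.5) over its genes, was 3.17 and 2.90 in the antibody libraries and 3.42, 4.89 and 4.65 in combination replicates 1, 2 and 3. Combination replicate 1 was thus only just above the antibody libraries and close to PBS replicate 2, at 3.44, while inhibitor replicate 3, given no antibody, reached 4.22. In bulk tissue, more cells of a type and more RNA per cell cannot be told apart.

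Ifi35, an interferon-induced leucine zipper protein (chromosome 11, 101448407 to 101458698), stood at 12.6 and 11.7 RPKM with the antibody and at 19.98, 26.2 and 22.2 RPKM in the combination. The groups did not overlap, and the log2 fold change was 0.87 (SE 0.16, limma adjusted p = 0.455). Isg15, a ubiquitin-like protein that is joined to other proteins during the antiviral response, stood at 13.5 and 11.1 RPKM with the antibody and at 27.6, 76.6 and 50.1 RPKM in the combination. Every combination library lay above both antibody libraries, with replicate 1 lowest among the 3 (log2 fold change 1.91, SE 0.55, limma adjusted p = 0.789). Irf7, a factor that feeds back on interferon output, was measured at 9.11 and 7.66 RPKM against 24.7, 60.4 and 47.8 RPKM. This was the widest difference of the list, at 2.25 (SE 0.66, limma adjusted p = 0.819). Bst2, which tethers budding viruses to the cell surface, stood at 52.8 and 35.7 RPKM against 79.0, 154 and 129.9 RPKM, a log2 fold change of 1.41 (SE 0.38). Rtp4, an interferon-induced chaperone of receptors, was at 4.94 and 4.46 RPKM against 9.96, 16.5 and 15.9 RPKM (1.46, SE 0.34, limma adjusted p = 0.634). Ifi35 shares 815 bases with an antisense gene and Rtp4 lies across a gene model on its own strand, so some of their reads may belong to those. All 5 of these genes shared the order of the combination libraries, with replicate 1 lowest and replicate 2 highest.

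Other members varied more with combination replicate 1. Ifit3, a translation inhibitor of the antiviral response, stood at 79.9 and 55.4 RPKM against 118, 571 and 423 RPKM. Combination replicate 1 lay below both antibody libraries for 5 of the 30 genes and above both for 18, while replicates 2 and 3 lay above both for all 30. Over all genes, replicates 2 and 3 were together above both antibody libraries for 50.7% and together below both for 7.24%, and replicate 1 was above both for 34.7%.

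**Figure D2:**
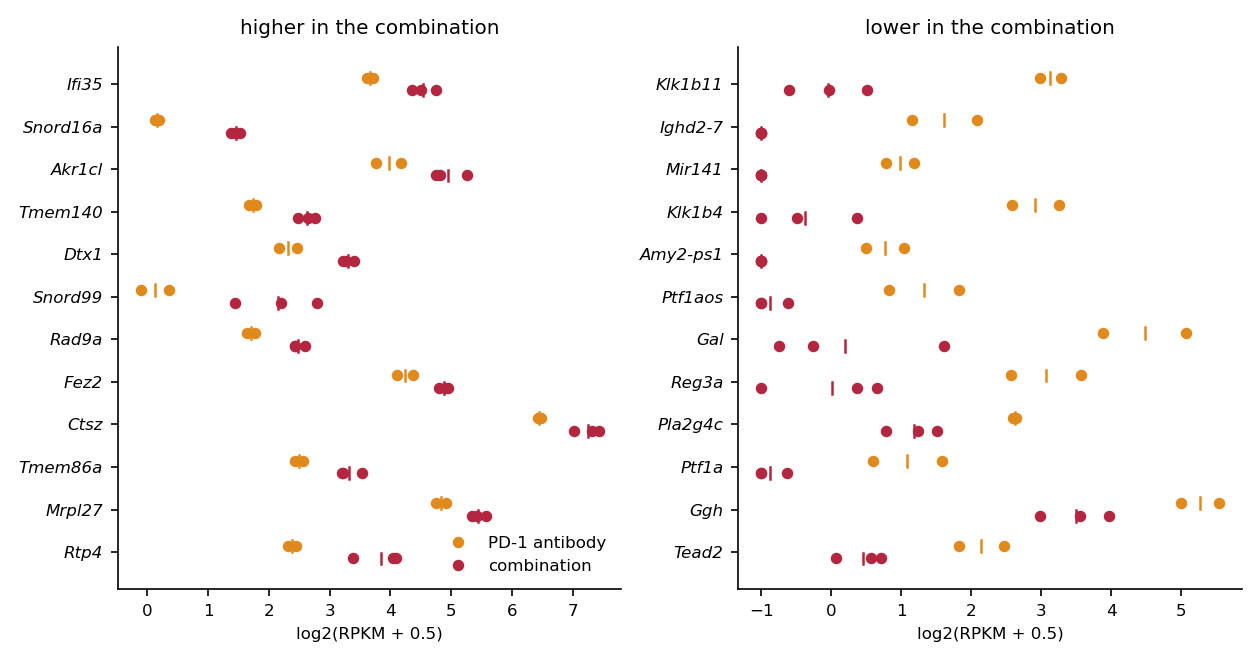
Levels, as log2(RPKM + 0.5), of the 12 named genes with the lowest p among those higher in the combination (left) and lower (right), in the 2 antibody and 3 combination libraries, with a vertical tick at each group mean. The groups are apart for every gene shown, although none passed the adjusted threshold.

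The interferon list kept a median above 0 in every alternative computed, from 1.07 to 2.35, the latter with the pancreas level as a covariate. Every combination library had a lower pancreas level than both antibody libraries. That covariate, here and below, therefore cannot separate the inhibitor from pancreas content. In the same fit the T cell median went from 0.10 to 1.39 and the skeletal muscle median from 3.74 to −2.14. Without combination replicate 1 the interferon median was 1.69. Between combination replicate 3 and antibody replicate 2, a pair chosen after seeing the data, it was 1.70 with all 30 genes higher. Muscle shares of that pair were close, at 0.812% and 0.690%, but pancreas shares were not, at 2.09% and 5.75%. When limma weighted each sample by its estimated quality, 163 genes (0.842%) stood higher past the adjusted threshold and 47 (0.243%) lower, and 18 of the 30 interferon genes were among the former. The estimation of those weights gave a convergence warning. With the muscle level as a covariate, 6 genes (0.031%) passed as higher and 1 (0.00516%) as lower, and Irf7 (log2 fold change 2.98, adjusted p = 0.031), Isg15 (2.50, adjusted p = 0.031) and the ISG15 protease Usp18 (2.47, adjusted p = 0.0369) were among them. Usp18 is named here because it passed in that fit.

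Sensors of nucleic acids, which lie upstream of interferon, stood higher for all 11 tested genes, with a median of 0.44 (0.32 under median-ratio scaling). The median was 0.82 without combination replicate 1, 0.17 without replicate 2 and 0.24 without replicate 3. Dhx58, a helicase that regulates cytosolic RNA sensing, was measured at 3.15 and 2.00 RPKM with the antibody and at 4.35, 11.9 and 10.2 RPKM in the combination. Its groups did not overlap (1.51, SE 0.65, limma adjusted p = 0.891), although its deposited span shares 2637 bases with an antisense gene. Tmem173, which encodes the adaptor STING, stood at 5.97 and 5.86 RPKM against 6.33, 9.60 and 9.55 RPKM, a log2 fold change of 0.46 (SE 0.27). Combination replicate 1 lay below both antibody libraries for 8 of the 11 sensors, against 43.5% of all genes, and replicates 2 and 3 lay above both for all 11.

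Genes of the interferon gamma response had a log2 fold change above 0 for 24 of 25 tested, with a median of 0.67 (0.55 under median-ratio scaling), and 3 stood at an unadjusted p under 0.05. The median was 1.12 without combination replicate 1, 0.44 without replicate 2, 0.36 without replicate 3 and 0.38 without antibody replicate 2. Gbp3, a guanylate-binding protein that attacks intracellular pathogens, stood at 188 and 98.2 RPKM with the antibody and at 164.9, 422 and 433 RPKM in the combination. Here combination replicate 1 lay between the antibody libraries, so the groups overlapped (1.19, SE 0.47). Its relatives Gbp6 (1.16, SE 0.50) and Gbp9 (0.94, SE 0.52) showed the same overlap, and both lie in a family of similar copies with overlapping spans. Socs1, the feedback inhibitor of cytokine signalling, did not overlap, at 2.60 and 1.65 RPKM against 2.74, 3.88 and 4.91 RPKM. Over the list, groups did not overlap for 3 of 25 genes, below the 21.5% of all genes, since replicate 1 lay below both antibody libraries for 14 of them.

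MHC class I presentation genes load peptides for CD8 T cells. They stood higher for 17 of 20, with a median of 0.55 (0.41 under median-ratio scaling), and of 0.91 without combination replicate 1. At an unadjusted p under 0.05 there were 5 (25%), against 4.02% of all genes. Groups did not overlap for 5 (25%), close to the 21.5% of all genes. Tapbp, the tapasin chaperone of class I molecules, stood at 57.5 and 57.0 RPKM with the antibody and at 71.0, 104.4 and 97.3 RPKM in the combination (0.64, SE 0.19, limma adjusted p = 0.832). Tap2, a subunit of the peptide transporter, was at 22.6 and 20.6 RPKM against 25.9, 45.3 and 44.2 RPKM (0.78, SE 0.27). H2-T23, a nonclassical class I gene, was at 66.0 and 54.0 RPKM against 74.3, 153 and 150.5 RPKM (0.996, SE 0.37), and its relative H2-T22 differed by 0.99 (SE 0.36). In each of these 4 genes every combination library lay above both antibody libraries, with replicate 1 closest to them. Reads of such similar class I genes may be split or shared between copies. The deposited span of Tapbp shares 3421 bases with Zbtb22 on the same strand, so some of its reads may belong to that gene. With sample quality weights 7 of the 20 passed as higher. MHC class II genes, which present to CD4 T cells, stood higher for 11 of 11 with a median of 0.34 (0.21 under median-ratio scaling), but groups did not overlap for 1 gene only. Without combination replicate 1 the median was 0.63, without replicate 2 it was 0.15, and without replicate 3 it was 0.13. The peptide-loading gene H2-DMb2 was measured at 19.8 and 11.04 RPKM against 18.3, 36.6 and 31.8 RPKM (0.88, SE 0.39), and H2-DMb1 differed by 0.40 (SE 0.23).

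**Figure D3:**
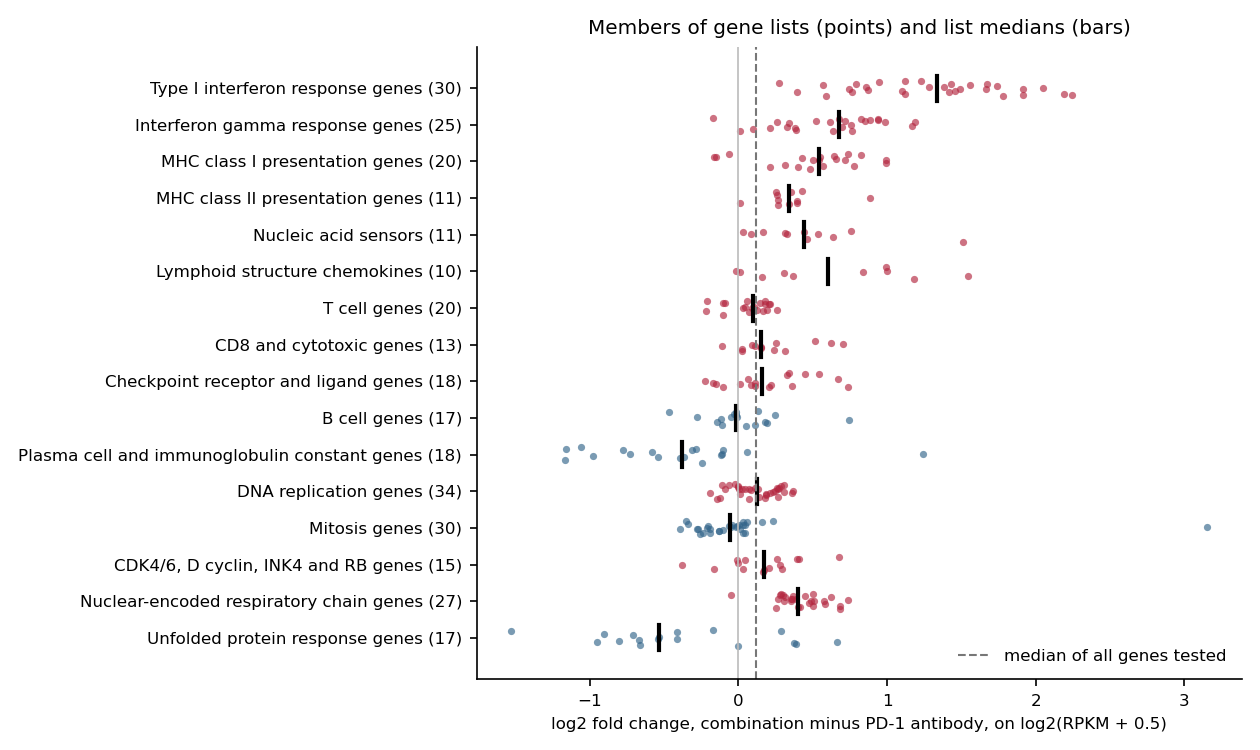
Log2 fold change (combination minus antibody, on log2(RPKM + 0.5)) of each tested member of 16 gene lists, with the number tested in brackets, the list median as a black bar and the median of all genes tested as a dashed line at 0.12. The type I interferon members all lie above 0 with a median of 1.33, while T cell and B cell members lie around 0.

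Lymphocyte genes differed little between the group means, because combination replicate 1 lay on the other side of the antibody libraries from replicates 2 and 3. T cell genes had a median of 0.10, with 15 of 20 above 0, and −0.01 under median-ratio scaling. The T cell list level was 2.40 and 1.98 in the antibody libraries, against 1.13, 2.78 and 2.87 for combination replicates 1, 2 and 3. Replicate 1 lay below both antibody libraries for all 20 genes, and replicates 2 and 3 lay together above both for 19. Without replicate 1 the median was 0.69 with all 20 above 0, and between combination replicate 3 and antibody replicate 2 it was 1.04. The median was −0.11 and −0.19 without combination replicates 2 and 3, and 0.31 and −0.07 without antibody replicates 1 and 2. Combination replicate 1 also held 11.2% muscle reads, and the part of this share in its low lymphocyte level was not tested. Cd8a, part of the CD8 receptor of cytotoxic T cells, was measured at 4.04 and 2.01 RPKM with the antibody and at 1.02, 4.26 and 6.79 RPKM in the combination (0.15, SE 0.60). Pdcd1, which encodes PD-1, was at 9.80 and 5.16 RPKM against 1.65, 9.83 and 13.6 RPKM (−0.17, SE 0.90). Both genes spanned the antibody values. Tbx21, a transcription factor of effector T cells, differed by 0.52 (SE 0.35), and Foxp3, which defines regulatory T cells, stood at 3.75 and 4.07 RPKM against 2.73, 6.22 and 5.08 RPKM. Tcf7, a factor of naive and stem-like T cells, varied least, at 21.5 and 20.8 RPKM against 18.1, 28.2 and 25.3 RPKM (0.15, SE 0.21, and −0.02 with quantile normalization). Its deposited span shares 17144 bases with a gene model on the same strand.

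Among checkpoint receptors and ligands, 14 of 18 had a log2 fold change above 0, against 67% of all genes. Combination replicate 1 lay below both antibody libraries for 17 of the 18, against 43.5% of all genes. Replicates 2 and 3 lay together above both for 16, against 50.7%. The list median was 0.16 (0.04 under median-ratio scaling), against 0.12 for all genes, and 0.69 without combination replicate 1. It was −0.02 and −0.03 without combination replicates 2 and 3, and 0.36 and 0.03 without antibody replicates 1 and 2. Cd274, which encodes the PD-1 ligand PD-L1, was measured at 26.9 and 12.1 RPKM with the antibody and at 8.28, 48.4 and 59.5 RPKM in the combination. Replicates 2 and 3 lay above both antibody libraries and replicate 1 below both, so the difference of 0.67 had an SE of 1.25. Lgals9, a galectin that binds the receptor TIM-3, was higher in every combination library, at 20.9 and 18.4 RPKM against 20.9, 46.0 and 37.2 RPKM (0.74, SE 0.36), with replicate 1 level with antibody replicate 1. The co-stimulatory ligand Cd86 differed by 0.45 (SE 0.48).

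The series title names tertiary lymphoid structures, B and T cell aggregates that form in inflamed tissue and are laid out by chemokines. Chemokines of that signature had a log2 fold change above 0 for 9 of 10 tested, with a median of 0.60 (0.49 under median-ratio scaling), and 1.08 without combination replicate 1. Groups did not overlap for 3 of the 10 (Ccl2, Ccl8 and Ccl21a), against 21.5% of all genes. Ccl8, which attracts monocytes and T cells, stood at 19.7 and 14.9 RPKM with the antibody and at 23.2, 45.3 and 39.4 RPKM in the combination (0.997, SE 0.32, limma adjusted p = 0.875). Ccl2, a monocyte attractant, was at 1.505 and 1.28 RPKM against 4.13, 5.41 and 5.65 RPKM (1.55, SE 1.02). Ccl21a, which guides T cells and dendritic cells into lymphoid tissue, was at 4.67 and 8.80 RPKM against 10.6, 8.82 and 24.8 RPKM (0.99, SE 0.85). For Ccl21a the lowest combination value and the highest antibody value were almost equal. The interferon-induced chemokines Cxcl9 (61.9 and 31.2 RPKM against 19.8, 88.2 and 91.6 RPKM) and Cxcl10 (4.34 and 1.82 RPKM against 2.82, 10.4 and 11.7 RPKM) overlapped between groups. Cxcl13, which draws B cells into follicles, was measured at 2.43 and 7.67 RPKM against 3.41, 3.47 and 6.81 RPKM, a log2 fold change of −0.02 (SE 1.30). Its antibody values enclosed all 3 combination values.

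Of the receptors and cytokines that organise lymphoid tissue, 13 of 18 had a log2 fold change above 0, against 67% of all genes. Combination replicate 1 lay below both antibody libraries for 13 of the 18, against 43.5% of all genes. Replicates 2 and 3 lay together above both for all 18, against 50.7%. The list median was 0.22 (0.14 under median-ratio scaling, and −0.03 without combination replicate 2). It was 0.54 and 0.03 without combination replicates 1 and 3, and 0.11 without antibody replicate 2. Ltbr, the lymphotoxin beta receptor of stromal organiser cells, stood at 9.99 and 10.6 RPKM with the antibody and at 20.3, 13.8 and 14.7 RPKM in the combination. Here replicate 1, rich in muscle reads, was the highest (0.62, SE 0.34), and the tumour necrosis factor receptor Tnfrsf1a differed by 0.34 (SE 0.21) without overlap. B cell genes had a median of −0.01 (−0.15 under median-ratio scaling) with 7 of 17 above 0 and 0 of 17 without overlap. Without combination replicates 1, 2 and 3 in turn their median was 0.62, −0.51 and −0.16, and without antibody replicates 1 and 2 it was 0.33 and −0.36. Ms4a1, which encodes the B cell antigen CD20, stood at 1.05 and 0.468 RPKM against 0.0109, 1.87 and 0.972 RPKM (−0.02, SE 0.64). Cd72, a B cell co-receptor also found on other leukocytes, had the lowest p of the list, at 28.1 and 17.2 RPKM against 19.9, 53.3 and 48.1 RPKM (0.74, SE 0.45).

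Plasma cell and immunoglobulin genes stood lower for 16 of 18, with a median of −0.38 (−0.51 under median-ratio scaling). This rested on combination replicate 1, which lay below both antibody libraries for 16 of 18, and without it the median was 0.07. The median was −0.68 without combination replicate 2 and −0.58 without replicate 3. Igkc, the kappa light chain constant gene, was at 3714 and 4458 RPKM with the antibody and at 906.9, 4631 and 4778 RPKM in the combination. Derl3, an endoplasmic reticulum protein that helps clear misfolded proteins, was lower in all 3 combination libraries, at 9.33 and 8.397 RPKM against 2.18, 5.14 and 4.29 RPKM (−1.17, SE 0.32, limma adjusted p = 0.763). Xbp1, a factor that secretory cells need, stood at 98.8 and 99.7 RPKM against 39.0, 68.5 and 72.2 RPKM (−0.78, SE 0.51). Iglc1, a lambda light chain gene among near-identical copies, was at 240.0 and 183 RPKM against 797, 743 and 205 RPKM.

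**Figure D4:**
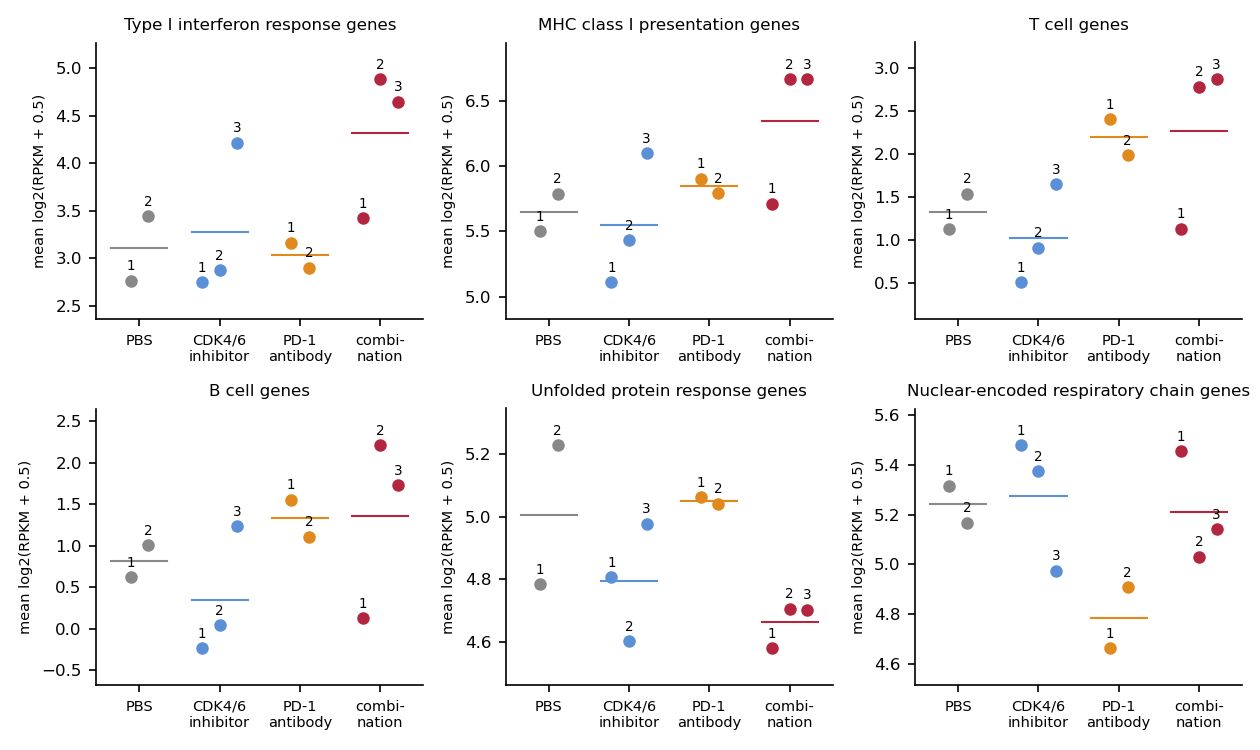
Mean log2(RPKM + 0.5) over the genes of 6 lists in all 10 libraries, with points numbered by replicate and a line at each group mean; each panel has its own vertical range. In the type I interferon panel all 3 combination libraries lie above both antibody libraries, and in the T cell and B cell panels combination replicate 1 lies below them.

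Genes of the kinases' own pathway differed little between the group means. In the list of CDK4/6, D cyclin, INK4 and RB genes, 11 of 15 had a log2 fold change above 0, with a median of 0.17 (0.05 under median-ratio scaling) and 0 at an unadjusted p under 0.05. The median was 0.26 and 0.05 without combination replicates 1 and 2, and 0.07 and 0.30 without antibody replicates 1 and 2. Cdk4 was measured at 12.5 and 15.1 RPKM with the antibody and at 17.4, 15.6 and 13.8 RPKM in the combination (0.17, SE 0.22, and −0.0027 with quantile normalization). Cdk6 was at 2.08 and 2.15 RPKM against 1.71, 2.97 and 2.81 RPKM (0.17, SE 0.32). The cyclin genes Ccnd1 (17.2 and 15.6 RPKM against 14.9, 26.1 and 26.9 RPKM), Ccnd2 (0.68, SE 0.38) and Ccnd3 (0.29, SE 0.18) had positive differences, and Rb1 stood at 3.397 and 4.10 RPKM against 1.74, 3.42 and 3.43 RPKM (−0.38, SE 0.33). Cdkn1a, the p21 inhibitor of cyclin-dependent kinases, was at 3.21 and 3.19 RPKM against 4.15, 3.71 and 5.43 RPKM. Its groups did not overlap, by 0.40 (SE 0.47).

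Medians of the proliferation lists lay between −0.06 and 0.13, while the combination libraries differed from each other. For DNA replication genes, combination replicate 1 lay below both antibody libraries for 23 of 34, against 43.5% of all genes. Replicates 2 and 3 lay together above both for 25 of the 34, against 50.7%. For mitosis genes, replicate 1 lay below both for 25 of 30, and replicates 2 and 3 lay together above both for 9 and below both for 6. DNA replication genes, which E2F factors switch on, stood higher for 25 of 34, with a median of 0.13 (0.02 under median-ratio scaling), close to the all-gene median, 0.27 without combination replicate 1 and 0.06 without replicate 2. The E2F letters TTTCGCGC or TTTGGCGC were present in 8 of 28 promoters of this list (28.6%), against 1.18% of all promoters, on either strand. Gins4, a subunit of the replicative helicase, stood at 25.4 RPKM in both antibody libraries and at 27.9, 33.1 and 31.0 RPKM in the combination (0.27, SE 0.15). Of the E2F factors, cyclin E and CDK2 genes, 9 of 14 stood higher, against 67% of all genes. Their median was 0.09 (−0.03 under median-ratio scaling). All 3 combination libraries lay above both antibody libraries for 3 of the 14 and below both for 2. The E2F genes E2f3 (0.41, SE 0.21) and E2f1 (0.43, SE 0.29) were higher in every combination library. Mitosis genes stood higher for 11 of 30 with a median of −0.06, and for 3 of 30 with a median of −0.18 under median-ratio scaling, whereas without combination replicate 1 the median was 0.08. The cell cycle homology letters TTTGAA were present in 16 of 24 promoters of the mitosis list (66.7%), against 14% of all promoters. Mki67, the proliferation marker Ki-67, was at 58.1 and 58.0 RPKM with the antibody and at 33.0, 51.0 and 51.0 RPKM in the combination. All 3 combination values lay below both antibody values (−0.39, SE 0.26, limma adjusted p = 0.94). Aurka, a spindle kinase, stood at 6.63 and 7.63 RPKM against 8.05, 8.45 and 8.90 RPKM (0.24, SE 0.18). Dnmt1, the maintenance DNA methyltransferase that has been named as an E2F target in studies of these inhibitors, was at 24.2 and 23.6 RPKM against 16.3, 29.5 and 28.1 RPKM.

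Ube2c, a ubiquitin-conjugating enzyme of mitosis, could not be read as a mitotic gene in these libraries. Its deposited span shares 1662 bases with Tnnc2, a troponin of fast skeletal muscle on the opposite strand. Ube2c stood at 8.21 and 295 RPKM with the antibody and at 4959, 72.3 and 254 RPKM in the combination, and Tnnc2 at 1.15 and 939 RPKM against 16090, 210.5 and 804.5 RPKM. Both genes had the same order of libraries in this comparison.

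Genes of the unfolded protein response, by which cells match endoplasmic reticulum capacity to secretion, stood lower in the combination for 13 of 17. Their median was −0.53 (−0.67 under median-ratio scaling), 11 lay below both antibody libraries in all 3 combination libraries, against 5.1% of all genes, and 5 stood lower at an unadjusted p under 0.05, against 1.53%. Hspa5, the chaperone BiP, was measured at 259 and 258 RPKM with the antibody and at 114, 156 and 149 RPKM in the combination (−0.90, SE 0.39, limma adjusted p = 0.891). Hsp90b1, a chaperone of the same compartment, stood at 725 and 872 RPKM against 524, 578 and 551 RPKM (−0.53, SE 0.22). Pdia6, a disulphide isomerase, was at 109 and 123 RPKM against 79.8, 78.8 and 79.4 RPKM (−0.54, SE 0.18), and Herpud1, which acts in the disposal of misfolded proteins, at 23.3 and 23.1 RPKM against 15.3, 12.7 and 14.3 RPKM (−0.71, SE 0.24). For these 4 genes the groups were apart. The combination libraries were close to each other in Hsp90b1, Pdia6 and Herpud1, while Hspa5 was lower in replicate 1 than in replicates 2 and 3. Asns, asparagine synthetase, a target of the factor ATF4, was lowest of the list relative to the antibody, at 14.7 and 8.82 RPKM against 2.19, 4.10 and 5.22 RPKM (−1.53, SE 0.40, limma adjusted p = 0.759). By contrast Ddit3, which encodes the stress factor CHOP, stood higher in every combination library, at 38.8 and 42.5 RPKM against 43.2, 86.2 and 72.9 RPKM (0.67, SE 0.28).

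Exocrine pancreas, a tissue rich in endoplasmic reticulum, took 14% and 5.75% of the antibody libraries and at most 2.09% of the combination libraries, and its part in the unfolded protein response values was not tested. The list median was −0.48 with the pancreas level as a covariate and −0.46 with muscle and pancreas levels together. Since every combination library had a lower pancreas level than both antibody libraries, these covariate fits cannot separate the inhibitor from pancreas content. Between combination replicate 3 and antibody replicate 2, whose pancreas shares were 2.09% and 5.75%, the list median was −0.59. The list level was 5.06 and 5.04 with the antibody, 4.58, 4.71 and 4.70 in the combination, 4.81, 4.60 and 4.98 with the inhibitor alone and 4.78 and 5.23 in PBS. PBS replicate 2 had the highest level of all 10 libraries. It held 0.00583% pancreas reads, 0.696% liver reads and 0.848% plasma cell and immunoglobulin reads, and the part of each in its level was not tested. Hspa5, Ddit3, Igkc and Ifit3 were chosen for the text after their values were seen.

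Nuclear genes of the respiratory chain stood higher for 26 of 27, with a median of 0.40 (0.27 under median-ratio scaling), and groups did not overlap for 22, against 21.5% of all genes. Ndufb8, a complex I subunit, stood at 25.9 and 27.8 RPKM with the antibody and at 39.1, 36.6 and 39.1 RPKM in the combination (0.50, SE 0.13, limma adjusted p = 0.763). Its deposited span shares 4260 bases with a gene model on the same strand. Ndufv1, another complex I subunit, differed by 0.59 (SE 0.17), Cox7a2 of complex IV by 0.50 (SE 0.15), and Ndufs3 by 0.39 (SE 0.15), all without overlap. The list level was 4.66 and 4.91 with the antibody, 5.45, 5.03 and 5.14 in the combination and 5.32 and 5.17 in PBS, so the antibody libraries stood lowest. The median was 0.04 with the pancreas level as a covariate and 0.29 without combination replicate 1, the library richest in muscle, a tissue dense in mitochondria. Mitochondrially encoded genes stood higher for 11 of 13 (median 0.43, 0.30 under median-ratio scaling, −0.04 with the pancreas covariate), with mt-Co1 at 1340 and 1490 RPKM against 2476, 1901 and 1923 RPKM.

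Blood vessel endothelial genes stood higher for 13 of 14 with a median of 0.46 (0.35 under median-ratio scaling, −0.05 with the pancreas covariate), and groups did not overlap for 7, against 21.5% of all genes. Their median was 0.26 without combination replicate 1 and 0.30 without antibody replicate 1. Robo4, a guidance receptor of endothelium, stood at 0.993 and 0.948 RPKM against 1.60, 1.504 and 1.54 RPKM (0.48, SE 0.27). Collagen and fibroblast genes stood lower for 16 of 19, with a median of −0.32 (−0.44 under median-ratio scaling), which rested on antibody replicate 2 and was 0.15 without it. It was −0.85 without antibody replicate 1, and −0.53 and −0.15 without combination replicates 1 and 2. Fn1, which encodes fibronectin, was at 53.6 and 119 RPKM with the antibody and at 40.8, 29.8 and 45.2 RPKM in the combination (−1.06, SE 0.32, limma adjusted p = 0.832). Col3a1, a fibrillar collagen, was at 103 and 269.9 RPKM against 187.9, 64.98 and 82.9 RPKM, with overlap. Among macrophage genes, 13 of 21 stood higher, a smaller share than the 67% of all genes. Their median was 0.24 (0.11 under median-ratio scaling, −0.0015 with the replicate number as a block). The median was 0.12 without antibody replicate 1, and 0.44, 0.06 and 0.06 without combination replicates 1, 2 and 3. Gpnmb, a glycoprotein of lipid-laden macrophages, was higher in all 3 combination libraries, at 1.03 and 1.16 RPKM against 4.13, 3.59 and 4.28 RPKM (1.497, SE 0.49, limma adjusted p = 0.891), while the scavenger receptor Cd163 was at 2.50 and 9.30 RPKM against 2.55, 0.654 and 2.52 RPKM.

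The lowest p values of the comparison belonged to genes lower in the combination. Klk1b11, a glandular kallikrein protease among similar copies (chromosome 7, 43995877 to 43999875), stood at 9.19 and 7.38 RPKM with the antibody and at 0.157, 0.482 and 0.927 RPKM in the combination. It was near 0 in the combination and in all 5 libraries without antibody, where the highest value was 0.242 RPKM (−3.17, SE 0.35, limma adjusted p = 0.12). Its relative Klk1b4 was at 9 and 5.50 RPKM against 0, 0.213 and 0.789 RPKM (−3.29, SE 0.40, limma adjusted p = 0.12). Gal, the neuropeptide galanin, stood at 33.1 and 14.3 RPKM against 0.0949, 0.334 and 2.56 RPKM, Reg3a, a secreted lectin of the pancreas and gut, at 5.46 and 11.3 RPKM against 0, 0.793 and 1.07 RPKM, and Ptf1a, the transcription factor of acinar cells, at 2.50 and 1.01 RPKM against 0, 0 and 0.146 RPKM. In Klk1b11, Klk1b4, Gal, Reg3a and Ptf1a no combination library with more pancreas reads had a lower value than one with fewer. That order held for 22.8% of all genes tested. It held for 151 of the 297 genes (50.8%) that stood lower at an unadjusted limma p under 0.05. Pla2g4c and Ggh, described below, also had it. All 21 exocrine pancreas genes lay below both antibody libraries in all 3 combination libraries (median −5.48, −5.65 under median-ratio scaling). The elastase Cela1 was at 26930 and 11410 RPKM against 37.2, 812 and 3291 RPKM.

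Ptf1aos, the antisense partner of Ptf1a with 1012 shared bases, stood at 3.05 and 1.28 RPKM against 0, 0 and 0.1505 RPKM. Since it is not stated whether counting used strand, reads of these partners cannot be told apart. Further transcripts of this end of the list rested on few reads: Ighd2-7, an immunoglobulin diversity segment, had 3 reads in the antibody group, and Mir141, a microRNA of epithelia, had 7. With the 0 reads of the combination set to a limit of 3 reads over the group, they were at least 1.54-fold and 3.56-fold lower, and the amylase pseudogene Amy2-ps1, with 90 reads in the antibody group, at least 45.9-fold lower, for counting error only.

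Other genes of low p did not stand at 0 without the antibody. Pla2g4c, a phospholipase A2 that acts in the cytosol, was at 5.56 and 5.76 RPKM with the antibody and at 1.23, 1.86 and 2.36 RPKM in the combination (−1.44, SE 0.23, limma adjusted p = 0.379). It also stood at 4.06 and 5.06 RPKM in PBS and at 1.36, 1.63 and 1.41 RPKM with the inhibitor alone (−1.36, limma adjusted p = 0.388), so that every library with the inhibitor lay below every library without it. Ggh, which trims the glutamate tails of folates, was at 46.1 and 31.4 RPKM against 7.41, 11.3 and 15.2 RPKM, and at 5.63 to 7.47 RPKM in the 5 libraries without antibody. Tead2, a DNA-binding partner of the Hippo pathway, was at 5.04 and 3.03 RPKM against 0.988, 0.547 and 1.15 RPKM.

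Among the genes higher in the combination with the lowest p, beside Ifi35 and Rtp4, Ctsz, the lysosomal protease cathepsin Z, had the highest level. It stood at 85.1 and 88.2 RPKM with the antibody and at 129, 171 and 159 RPKM in the combination (0.80, SE 0.18, limma adjusted p = 0.62). Akr1cl, an aldo-keto reductase, was at 17.6 and 13.1 RPKM against 26.2, 37.7 and 27.7 RPKM (0.96, SE 0.20), and Dtx1, a ubiquitin ligase of the Notch pathway, at 5.01 and 4.002 RPKM against 8.79, 10.1 and 9.13 RPKM (0.98, SE 0.20). In Ctsz, Akr1cl and Dtx1 all 3 combination libraries lay above both antibody libraries. In Ctsz and Akr1cl they spread over a wider range of RPKM than the gap between the groups. Rad9a, part of a checkpoint clamp at damaged DNA, differed by 0.77 (SE 0.16), Mrpl27, a protein of the mitochondrial ribosome, by 0.62 (SE 0.14), Fez2 by 0.64 (SE 0.14), Tmem140 by 0.89 (SE 0.18) and Tmem86a by 0.82 (SE 0.19). The small nucleolar RNAs Snord16a (1.30, SE 0.24) and Snord99 (2.02, SE 0.43) lie wholly within the spans of Rpl4 and Snhg12 on the same strand. For several of these genes it was the antibody libraries that stood apart from the others: Fez2 was at 16.7 and 20.1 RPKM there and at 26.0 to 30.2 RPKM in the other 8 libraries.

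Whether the inhibitor acted differently with and without the antibody was tested by the difference between its 2 effects, (combination minus antibody) minus (inhibitor minus PBS). limma placed 0 of 19368 genes under an adjusted p of 0.05 (0% in each direction, smallest adjusted p 0.777). At an unadjusted p under 0.05, 962 genes (4.97%) had a larger effect with the antibody and 127 (0.656%) a smaller one, and the difference was above 0 for 83.3% of all genes with a median of 0.33. Under median-ratio scaling the split was 196 larger and 255 smaller and the all-gene median 0.02, with 52.5% above 0, and under quantile normalization the split was 176 and 297. The inhibitor effect without the antibody had an all-gene median of −0.20, with 23.4% of genes above 0. Type I interferon genes had a median difference of 1.08 (0.77 under median-ratio scaling), with 30 of 30 above 0 under both scalings and 2 at an unadjusted p under 0.05, and a median inhibitor effect without the antibody of 0.10 (0.29 under median-ratio scaling). For Ifi35 the difference was 0.75 (SE 0.22, limma adjusted p = 0.78), with PBS at 17.5 and 16.3 RPKM and the inhibitor alone at 17.4, 19.5 and 18.2 RPKM. For Irf7 it was 1.37 (SE 0.94), where the inhibitor alone gave 9.52, 9.85 and 44.9 RPKM and PBS 6.47 and 11.4 RPKM. Inhibitor replicate 3 thus had an Irf7 level within the range of the combination, and inhibitor replicates 1 and 2, with 10.97% and 9.8% muscle reads, did not. For MHC class I genes the median difference was 0.65 and for T cell genes 0.31, close to the all-gene median, and under median-ratio scaling 0.30 and 0.10.

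**Figure D5:**
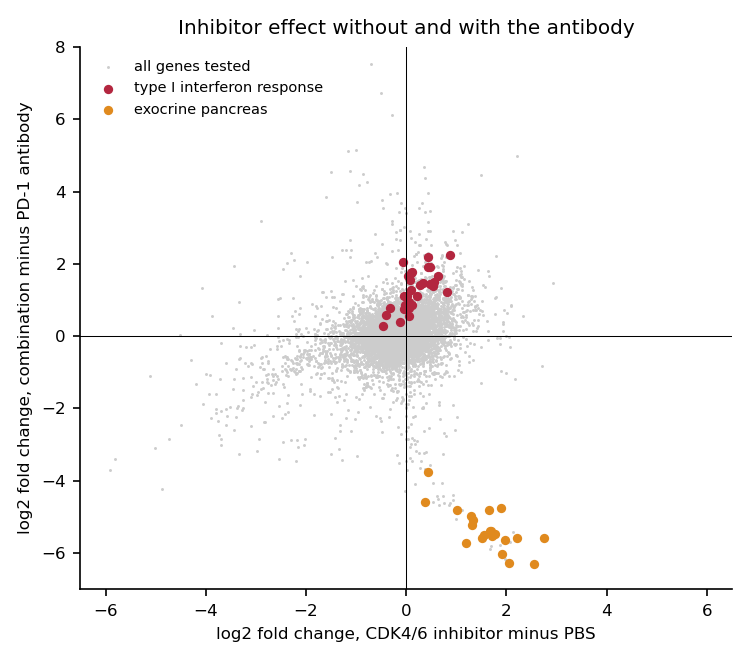
Log2 fold change of every gene tested for the inhibitor without the antibody (horizontal, inhibitor minus PBS) and with it (vertical, combination minus antibody), both on log2(RPKM + 0.5). The 30 type I interferon genes all lie above 0 on the vertical axis, around a median of 0.10 on the horizontal axis, and the exocrine pancreas genes lie lowest on the vertical axis.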

How the data were processed

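Per the labels' protocols, total RNA of tumours (TRIzol) went into strand-preserving mRNA libraries, which were sequenced from both ends. Which of 2 kits made which library is not stated. The authors deposited 1 table of RPKM values for 32830 genes in 10 libraries. The submitters' processing notes name the builds GRCm38 and mm10, while aligner, counter and strand setting are not given in these sources. RPKM is scaled to each library's total, so a tissue that takes many reads lowers all other values. RPKM times gene length gave whole reads for all values, within a tolerance of 1e-06, and these gave the depths. Samples were grouped by title.

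Values were tested as log2(RPKM + 0.5), which understates differences of low genes, for genes at 0.5 RPKM or more in at least 2 libraries. limma 3.58.1 in R 4.3.3 fitted 4 group means to all 10 libraries, with 6 residual degrees of freedom, a mean-variance trend, robust moderation and Benjamini-Hochberg adjustment over all genes tested at a threshold of 0.05. An exact permutation test of 3 libraries against 2 has 10 arrangements and cannot go below 0.1 one-sided, so none is given. Named genes were, in each direction, the 12 of lowest p whose higher group averaged 1 RPKM or more (leaving out unnamed gene models), 15 genes of the drug's pathway and immune markers, and up to 4 members of lowest p in each list. Genes named outside this rule were chosen after their values were seen. The members and gene lists were chosen with earlier results of these data known. The fit was tested on simulated data with 200 changed genes. Promoters are RefSeq's, on GRCm38.p6.

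Alternatives were other pseudocounts, filters, scalings, moderation and sample sets, voom on the recovered reads, sample quality weights, a replicate block, tissue levels as covariates and leaving out each library. Counting limits (3 reads for a group at 0) cover counting error only.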

Additional observations from a re-analysis of the deposited data

How the results depend on the processing

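The count of genes under the adjusted threshold in combination versus antibody was 0 in the reported fit, 1 with a pseudocount of 1, 15 with no filter, 2 with no trend, 210 with sample quality weights, 7 with the muscle covariate, 1 without the 3 muscle-rich libraries, 1 with both covariates and 0 to 5 when each library was left out. For the difference of inhibitor effects it was 1 without the 3 muscle-rich libraries. The pancreas covariate, alone or with muscle, was added after seeing the data. Pancreas level was lower in every combination library than in both antibody libraries, so fits with it cannot separate the inhibitor from pancreas content. Log2 fold changes crossed 0 for these genes. With the pancreas covariate Rb1 was 0.22, Cdk4 −0.14, Dnmt1 0.68, Pdcd1 1.84, Cxcl13 1.68, Ms4a1 1.25, Xbp1 0.16 and mt-Co1 −0.059. With both covariates Rb1 was 0.19, Cdk4 −0.052, Dnmt1 0.56, Pdcd1 1.65, Cxcl13 1.25 and Ms4a1 1.07. With the muscle covariate Cdk4 was −0.014, Dnmt1 0.35, Pdcd1 0.76, Cxcl13 0.93 and Ms4a1 0.60. With quality weights Dnmt1 was 0.22, Pdcd1 0.73, Cxcl13 0.40 and Ms4a1 0.34. Without the muscle-rich libraries Dnmt1 was 0.27, Pdcd1 0.66, Cxcl13 0.14 and Ms4a1 0.61. With quantile normalization Cdk4 was −0.0027 and Tcf7 −0.018, and with a pseudocount of 1 Ms4a1 was 0.043. With single libraries left out, Dnmt1 ran from −0.15 to 0.27, Cd8a from −0.33 to 0.80, Pdcd1 from −0.70 to 0.66, Cxcl13 from −0.76 to 0.72, Cxcl9 from −0.18 to 1.02, Ms4a1 from −0.50 to 0.61 and Foxp3 from −0.054 to 0.47. With the replicate number as a block Cdk6 was −0.015, Cd8a −0.13 and Cd274 −0.18, and 0 genes were called. Same-numbered antibody and combination libraries deviated from their group means with a correlation of −0.39 in both pairs. With only 2 antibody libraries these values are not independent of each other. Same-numbered inhibitor and combination libraries gave 0.62, −0.45 and 0.49 for replicates 1, 2 and 3. These correlations therefore cannot tell whether the numbers pair the samples. The cause of the differences between settings was not tested. Depth limits only transcripts with few reads, such as Ighd2-7 and Mir141.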

Other observations

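Gene groups outside the comparisons above were mostly near the all-gene median of 0.12. Hypoxia and glycolysis genes had a log2 fold change above 0 for 19 of 23, with a median of 0.22 (0.09 under median-ratio scaling). That median was 0.11 and 0.39 without antibody replicates 1 and 2, and 0.13 and 0.38 without combination replicates 1 and 2. Complement genes had a median of 0.33 with 9 of 16 above 0, senescence-associated secreted factors 0.27 with 12 of 15, and p53 target genes 0.12 with 10 of 16. Under median-ratio scaling these medians were 0.22, 0.19 and 0.01, in that order. The complement median was 0.13 without antibody replicate 1 and 0.14 without combination replicate 3, that of the secreted factors 0.45 without antibody replicate 2, and that of the p53 targets 0.08 and 0.05 without combination replicates 1 and 2. Immediate early genes, switched on within minutes of a stimulus or of handling, stood higher for 14 of 16 with a median of 0.57. That median was 0.44 under median-ratio scaling, 0.21 without combination replicate 1 and −0.22 with the pancreas covariate. Fatty acid synthesis genes had a median of 0.07 in combination versus antibody and of −0.63 in inhibitor versus PBS. Under median-ratio scaling these were −0.06 and −0.42. The difference of the effects was above 0 for 15 of 15 genes, with a median of 0.84 and 4 at an unadjusted p under 0.05. Over all genes that difference was above 0 for 83.3%, with a median of 0.33 and 4.97% at an unadjusted p under 0.05 as larger, and under median-ratio scaling the list's median was 0.48 with 14 of 15 above 0. None of these genes passed the adjusted threshold.

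Dendritic cell genes stood lower for 8 of 12 (median −0.03), and regulatory T cell genes had a median of 0.01 with 5 of 9 above 0. High endothelial venule genes, which mark the vessels through which lymphocytes enter lymphoid tissue, had a median of 0.09 with 6 of 10 above 0. Under median-ratio scaling these medians were −0.13, −0.11 and 0.01, in that order. Without combination replicate 1 they were 0.25, 0.29 and 0.16, against 0.21 for all genes. That replicate lay below both antibody libraries for 11 of 12 dendritic cell genes and 9 of 9 regulatory T cell genes, against 43.5% of all genes. Replicates 2 and 3 lay together above both for 7 of the 12 and 8 of the 9, against 50.7%. Germinal centre and follicular helper genes had a median of 0.06 (−0.05 under median-ratio scaling), and of 0.35 without combination replicate 1. Hepatocyte genes stood lower for all 16 tested (median −1.90, −1.96 under median-ratio scaling), which rested on antibody replicate 2, and the median was 0.01 without it.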
